A study of Mus musculus with 4 samples.

Results

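The G1 cyclins Ccnd1, Ccnd2, Ccnd3 and Ccne1, the kinases Cdk4 and Cdk6, and the kinase inhibitors Cdkn1a, Cdkn1b, Cdkn2a and Cdkn2b were read on 4 Affymetrix arrays of freshly sorted mouse mammary basal cells. Every probe set that the platform annotation assigns to exactly 1 gene with one of these symbols was taken, which gave 27 probe sets of the 45037 that are not controls, and 10 genes of 18193. Of the arrays, 2 came from mice fed soy protein isolate (SPI) and 2 from mice fed the control protein casein (CAS). All 4 came from MMTV-Wnt1 transgenic (Wnt1-Tg) animals of the mixed background labelled B66SJL/HEV/J, so the CAS cells carry the transgene as well, and cells without it were not analysed here. The MMTV promoter drives the Wnt1 ligand in the mammary gland. The sorted basal population is enriched for mammary stem cells (MaSC) and also holds myoepithelial cells and their progenitors. The labels used here give no age of the mice. Nor do they state that the 2 arrays on each diet were of different mice or cultures, and the p-values below therefore reflect array-to-array spread alone, possibly technical.

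Cells commit to division in G1. D-type cyclins bind CDK4 or CDK6, and the complex phosphorylates the retinoblastoma protein, which then releases E2F factors; cyclin E with CDK2 completes that step and starts DNA replication. The INK4 inhibitors, among them p15 from Cdkn2b and p16 from Cdkn2a, bind CDK4 and CDK6, while p21 from Cdkn1a and p27 from Cdkn1b bind whole cyclin-CDK complexes. In the mammary gland cyclin D1 is known for its part in the growth of alveoli in pregnancy, its gene has been described as a target of beta-catenin, and mice that lack it resist mammary tumours driven by ErbB2 or Ras but not those driven by Wnt1.

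The deposited values are log2 expression values centred on 0 for every probe set, so they hold differences between arrays and no levels. The spacing of the last digits still tells roughly how high a probe set was before centring: 8 to 16, 4 to 8, 2 to 4 or below 2 in log2 units, called its class here. Of the 27 probe sets 25 were at level 4 or above and 14 of these in the class 8 to 16, although 9 of 44 olfactory receptor probe sets also reached level 4, and reaching it is no proof that a gene is expressed. The medians over all non-control probe sets were 0.0092 and 0.0056 on the SPI arrays and -0.0096 and -0.0058 on the CAS arrays. Between the 2 arrays of a diet the median SD of a probe set was 0.070 for SPI and 0.0765 for CAS. Of the cell type markers, the basal keratin genes Krt5, Krt14 and Krt17 each had a probe set in the class 8 to 16, as had the luminal markers Krt8, Krt18 and Krt19 and the fibroblast markers Lum and Col3a1, so the arrays also read RNA that is known from cells other than basal ones.

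On SPI, transcripts of cyclin D1 and of the INK4 inhibitor p15 fell. Ccnd1 was lower at each of its 3 probe sets, by 1.74-fold to 1.88-fold, and Cdkn2b at its single probe set, by 1.93-fold (limma, Benjamini-Hochberg adjustment over all 45037 probe sets, n = 2 arrays per diet, threshold 0.05). The other 8 genes had no probe set past the threshold. Of the 27 probe sets 4 were called lower and 0 higher, where 1.25% of all probe sets were called lower and 0.249% higher. At an unadjusted p under 0.05 there were 11 lower and 0 higher of the 27, beside 8.35% lower and 9.43% higher of all probe sets, and by an ordinary t statistic 0 passed after adjustment. When SPI replicate 1, SPI replicate 2, CAS replicate 1 or CAS replicate 2 was left out, 0 of all 45037 probe sets passed in limma, where 676 had with all 4 arrays, so each of the 4 calls among the members was lost without any 1 array. Both SPI arrays lay below both CAS arrays at 14 of the 27 probe sets, against 20.5% of all probe sets, and above them at 3, against 27.9%. Probe sets of the same gene read the same RNA and are not replicates, and 9 of those 14 belong to Ccnd1 and Ccnd2. The median difference of the 27 was -0.11 and that of all probe sets 0.023, both SPI minus CAS on the log2 scale, but with arrays centred on the hybridization controls these were 0.043 and 0.18, so the sign of the members' median depends on that choice. On the same arrays the fibroblast and luminal markers listed near the end had medians of -1.36 and -0.32.

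**Figure D1:**
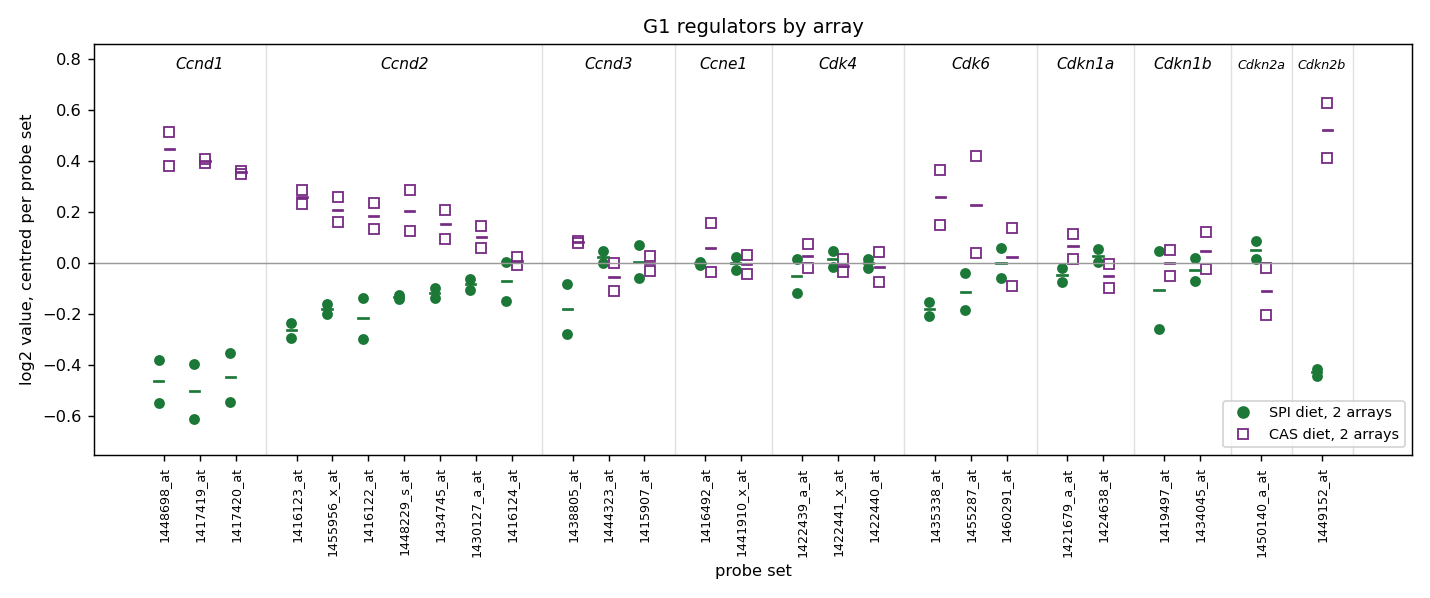
Log2 values centred per probe set (vertical axis) of the 27 probe sets of the 10 genes on each array, SPI as filled green circles and CAS as open purple squares, with a short line at each diet mean. The SPI and CAS arrays are farthest apart at the Ccnd1 probe sets and at Cdkn2b, whose SPI arrays were at -0.44 and -0.41 and CAS arrays at 0.63 and 0.41.

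Ccnd1, which encodes cyclin D1, had all 3 probe sets in the class 8 to 16. At 1448698_at the centred log2 values were -0.38 and -0.55 on the SPI arrays, against 0.52 and 0.38 on the CAS arrays. At 1417419_at they were -0.39 and -0.61 on the SPI arrays, against 0.39 and 0.41 on the CAS arrays. At 1417420_at they were -0.35 and -0.54 on the SPI arrays, against 0.36 and 0.35 on the CAS arrays. The diets did not overlap at any of these probe sets, where both SPI arrays lay below both CAS arrays at 20.5% of all probe sets. In each of the 3, SPI replicate 2 was the lowest of the 4 arrays. The log2 differences, SPI minus CAS, were -0.91 (SE 0.0983, limma adjusted p = 0.0275), -0.90 (SE 0.0993, adjusted p = 0.0289) and -0.80 (SE 0.0938, adjusted p = 0.0333). For 1448698_at that is 1.88-fold lower in SPI (95% interval of the limma fit 1.58 to 2.24). Under that centring of the arrays on hybridization controls the Ccnd1 differences were between -0.76 and -0.65 and all 3 still passed. Without SPI replicate 1, SPI replicate 2, CAS replicate 1 or CAS replicate 2, with the single remaining array taken to vary as much as the other diet's pair, the differences lay between -1.01 and -0.71 and none passed (limma adjusted p 0.151 to 0.304).

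Ccnd2, which encodes cyclin D2, was read by 7 probe sets, of which 0 passed the threshold in limma. At an unadjusted p under 0.05 there were 5, all lower, beside 8.35% lower of all probe sets. The nearest to passing was 1416123_at, with values of -0.23 and -0.29 on the SPI arrays and 0.23 and 0.29 on the CAS arrays. Its log2 difference was -0.52 (SE 0.0763, limma adjusted p = 0.0552), and over the alternatives with adjustment its adjusted p ran from 0.0244 among probe sets at level 4 or above, and 0.0469 with arrays centred on their median, to 0.0742 on the hybridization controls, 0.187 with the replicate block, 0.251 by an ordinary t statistic and 0.275 to 0.377 with an array left out. At 6 of the 7 probe sets, against 20.5% of all probe sets, both SPI arrays lay below both CAS arrays, with differences between -0.52 and -0.19. The exception was 1416124_at, with values of 0.0069 and -0.15 on the SPI arrays, against -0.0069 and 0.027 on the CAS arrays. On the hybridization controls the differences of those 6 lay between -0.37 and -0.031, and that of 1416124_at was 0.076. The probe sets of Ccnd2 therefore did not give 1 size: 1448229_s_at and 1455956_x_at, whose names mark probes that can bind related transcripts, were at -0.34 and -0.39, while 1434745_at was at -0.27 and 1430127_a_at at -0.19. Averaged over its probe sets, Ccnd2 was at -0.31 (95% interval -0.49 to -0.14, limma adjusted p = 0.0824 over 18193 genes).

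Ccnd3, which encodes cyclin D3, had 3 probe sets that differed from each other, and 0 passed in limma. Beside 8.35% lower of all probe sets, 1 was lower at an unadjusted p under 0.05. That probe set, 1438805_at in the class 8 to 16, had values of -0.08 and -0.28 on the SPI arrays, against 0.089 and 0.080 on the CAS arrays, a difference of -0.26 (limma adjusted p = 0.251). The other probe sets, 1415907_at and 1444323_at, were at 0.0068 and 0.079, and the arrays of the diets overlapped at the first of them. Set within each array, the Ccnd1 mean minus the Ccnd3 mean was -0.37 and -0.47 on the SPI arrays, against 0.38 and 0.40 on the CAS arrays. The Ccnd1 mean minus the Ccnd2 mean was -0.25 and -0.38 on the SPI arrays, against 0.31 and 0.17 on the CAS arrays. In both comparisons the diets did not overlap. Both reuse the Ccnd1 values given above and are no separate support for the lower Ccnd1. With 2 arrays per diet an exact two-sided permutation test gives p = 0.333 for either comparison, the smallest p it can give. Adjustment over the 3 pairs of genes compared this way leaves it at 0.333.

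Ccne1, which encodes cyclin E1, the partner of CDK2, did not pass at either probe set. At 1416492_at its values were -0.0053 and 0.0053 on the SPI arrays, against -0.034 and 0.16 on the CAS arrays. At 1441910_x_at they were -0.025 and 0.025 on the SPI arrays, against 0.031 and -0.040 on the CAS arrays. The CAS arrays enclosed the SPI arrays in both, and the differences were -0.062 (95% interval -0.30 to 0.18) and 0.0045 (-0.19 to 0.20), with limma adjusted p of 0.787 and 0.988.

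Of the catalytic partners of the D-type cyclins, Cdk4 lay close to 0 and Cdk6 lower. Of their 6 probe sets 0 passed the threshold in limma. At an unadjusted p under 0.05 there was 1, of Cdk6, lower, beside 8.35% lower of all probe sets. Cdk4 had 3 probe sets in the class 8 to 16, with differences of -0.078, 0.025 and 0.013 and 95% intervals that together ran from -0.30 to 0.22. The mean of the Cdk4 probe sets was -0.0060 and -0.016 on the SPI arrays, against -0.041 and 0.045 on the CAS arrays, so the SPI arrays lay between the CAS arrays. For Cdk6, 1435338_at had values of -0.15 and -0.21 on the SPI arrays and 0.37 and 0.15 on the CAS arrays, a difference of -0.44 (SE 0.0999, limma adjusted p = 0.131), or -0.28 on the hybridization controls. At 1455287_at the Cdk6 values were -0.18 and -0.040 on the SPI arrays, against 0.42 and 0.040 on the CAS arrays, a difference of -0.34 (SE 0.146, adjusted p = 0.315) that was -0.15 without CAS replicate 1, -0.53 without CAS replicate 2 and -0.19 on the hybridization controls. Neither overlapped between the diets, where both SPI arrays lay below both CAS arrays at 20.5% of all probe sets. CAS replicate 1 was the highest array in both Cdk6 probe sets. The Cdk6 probe set 1460291_at, in the lower class 2 to 4, was at -0.025 with overlapping arrays.

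**Figure D2:**
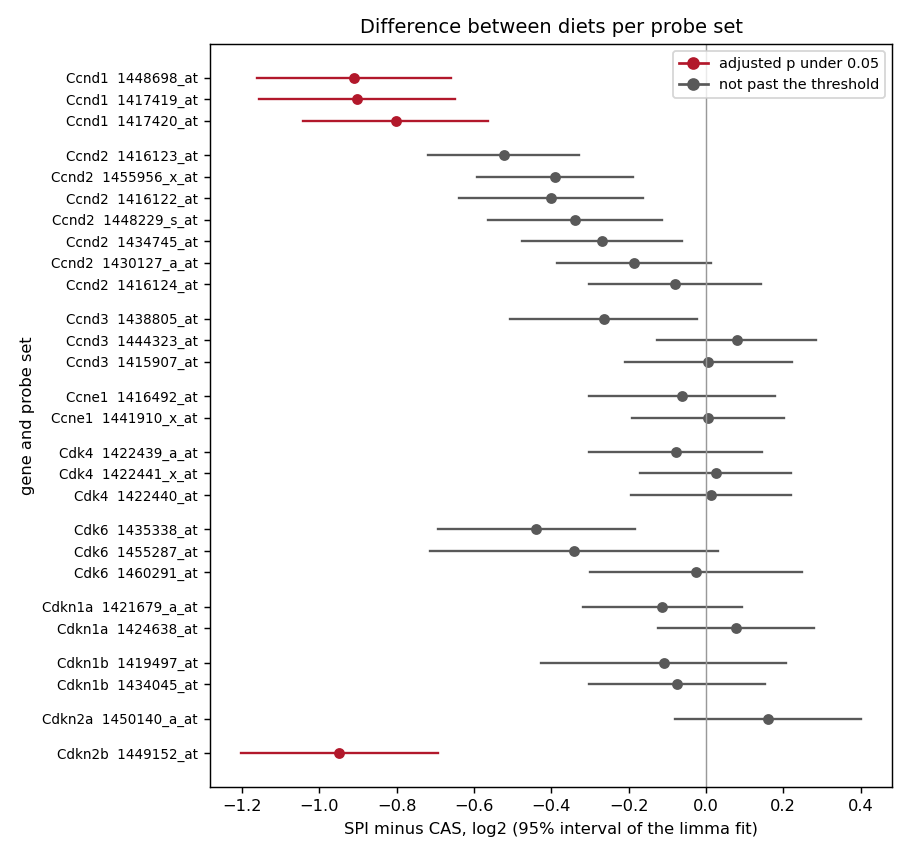
Difference between the diets, SPI minus CAS on the log2 scale, for each of the 27 probe sets, with the 95% interval of the limma fit; red marks an adjusted p under 0.05. The 4 red points are the 3 Ccnd1 probe sets and Cdkn2b, between -0.95 and -0.80, while the other 23 lie between -0.52 and 0.16.

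The INK4 inhibitors Cdkn2b and Cdkn2a are neighbours on chromosome 4, and their promoters are shown because Cdkn2b passed and Cdkn2a did not. In the RefSeq annotation of GRCm38.p6 the start of Cdkn2b lies 16413 bases from the nearer of the 2 starts listed for Cdkn2a, and those lie 12427 bases apart. All 3 are on the minus strand; the Cdkn2a start nearer to Cdkn2b is that of the Arf transcript and the farther one that of the p16 transcript. The 250 bases before each start follow, 5′ to 3′ on the minus strand, at chr4:89311033-89311282 for Cdkn2b, chr4:89294620-89294869 for the Arf start and chr4:89282193-89282442 for the p16 start. Capitals mark matches, on either strand, to any of 7 motifs searched.
Cdkn2b: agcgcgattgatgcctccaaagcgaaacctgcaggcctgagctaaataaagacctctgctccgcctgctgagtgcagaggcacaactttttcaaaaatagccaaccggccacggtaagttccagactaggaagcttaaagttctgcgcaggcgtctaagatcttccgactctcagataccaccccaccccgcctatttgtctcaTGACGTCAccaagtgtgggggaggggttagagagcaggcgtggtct
Cdkn2a, Arf start: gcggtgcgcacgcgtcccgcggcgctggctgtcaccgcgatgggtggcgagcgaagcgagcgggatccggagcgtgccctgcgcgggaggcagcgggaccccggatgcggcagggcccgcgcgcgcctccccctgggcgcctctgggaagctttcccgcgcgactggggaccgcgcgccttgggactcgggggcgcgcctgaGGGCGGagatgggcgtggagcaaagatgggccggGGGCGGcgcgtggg
Cdkn2a, p16 start: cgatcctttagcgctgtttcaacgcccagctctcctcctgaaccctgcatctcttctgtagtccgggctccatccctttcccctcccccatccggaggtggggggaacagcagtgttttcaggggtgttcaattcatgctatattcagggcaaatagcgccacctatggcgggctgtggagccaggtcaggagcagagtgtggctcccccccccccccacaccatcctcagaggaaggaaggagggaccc
The motifs were the GC box of Sp1 and KLF factors (GGGCGG, in 32.7% of the 32851 promoters of this length), the Smad box (CAGACA, 17.1%), the E-box of Myc (CACGTG, 6.02%), the E2F site (TTTCGCGC or TTTGGCGC, 0.654%), the AP-1 site (TGACTCA, 4.46%), the cAMP response element (TGACGTCA, 1.55%) and the TCF and LEF site (CTTTGAA or CTTTGAT, 7.48%). Letters of different motifs did not overlap in these windows. The Cdkn2b window held 1 cAMP response element and no other match, the Arf window held 2 GC boxes, and the p16 window held none of the 7. Of the 10 genes 8 had entries in the promoter table, 11 windows in all, and 7 of the 11 held a GC box; Ccnd1 and Ccnd2 were not among them.

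Cdkn2b, which encodes p15, an inhibitor known to be induced by TGF-beta, had values of -0.44 and -0.41 on the SPI arrays, against 0.63 and 0.41 on the CAS arrays, in the class 4 to 8. The SPI arrays lay close together and both far below the CAS arrays. The log2 difference was -0.95 (SE 0.0994, 95% interval -1.20 to -0.69, limma adjusted p = 0.0263). Without SPI replicate 1, SPI replicate 2, CAS replicate 1 or CAS replicate 2 in turn it lay between -1.06 and -0.84 and did not pass (adjusted p 0.228 to 0.282). Cdkn2a had values of 0.086 and 0.018 on the SPI arrays, against -0.20 and -0.018 on the CAS arrays, at a probe set in the class 2 to 4. Its difference, 0.16 (95% interval -0.080 to 0.40, adjusted p = 0.440), did not pass. The files do not say whether that probe set reads the p16 transcript, the Arf transcript or both. Cdkn2b minus Cdkn2a within each array was -0.53 and -0.43 on the SPI arrays, against 0.83 and 0.43 on the CAS arrays, without overlap (exact two-sided permutation p = 0.333, again the smallest possible). That comparison reuses the Cdkn2b values above and is no separate support.

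The CIP/KIP inhibitors did not pass at any of their 4 probe sets in limma, none of which had an unadjusted p under 0.05. Cdkn1a, which encodes p21, a target of p53, had values of -0.018 and -0.074 on the SPI arrays and 0.018 and 0.12 on the CAS arrays at 1421679_a_at, a difference of -0.11. At 1424638_at, also in the class 8 to 16, the Cdkn1a values were 0.055 and 0.0038 on the SPI arrays, against -0.095 and -0.0038 on the CAS arrays, a difference of 0.078. The 2 readings of Cdkn1a had opposite signs, with limma adjusted p of 0.525 and 0.664. Cdkn1b, which encodes p27, was at -0.11 and -0.075 with overlapping arrays (adjusted p = 0.706 and 0.716). At 1419497_at the Cdkn1b values were 0.048 and -0.26 on the SPI arrays, against -0.048 and 0.054 on the CAS arrays, so SPI replicate 2 alone stood low.

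With the probe sets of each gene averaged first, Ccnd1 and Cdkn2b were again the 2 of the 10 that passed, Ccnd1 at -0.87 (95% interval -1.09 to -0.66, limma adjusted p = 0.00930) and Cdkn2b (adjusted p = 0.00846), where 3.09% of the 18193 genes were called lower. The order of the 10 gene means, lowest first, was Cdkn2b, Ccnd1, Ccnd2, Cdk6, Cdkn1b, Ccnd3, Ccne1, Cdkn1a, Cdk4 and Cdkn2a. The 95% intervals of Cdkn2b and Ccnd1 overlapped each other and neither reached that of Ccnd2, the next in order. Those of the other neighbours overlapped.

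The targets and partners of these genes were followed in 6 lists of 131 genes, of which 126 had a probe set of their own. Of their 282 probe sets 2 passed, 1 in each direction, or 0.709%, where 1.25% of all probe sets were called lower and 0.249% higher. Centring on the hybridization controls let 23 pass, 22 of them higher in SPI, and raised the calls over all probe sets as well, to 2261, with 3.46% of all probe sets called higher. Among 27 DNA replication genes that E2F drives, 0 passed; at an unadjusted p under 0.05 there were 12 probe sets higher and 1 lower of 64, beside 9.43% higher and 8.35% lower of all probe sets, and by an ordinary t statistic 0 passed after adjustment. Rrm2, the small subunit of ribonucleotide reductase, was at 0.56, 0.40 and 0.50 on the log2 scale in SPI minus CAS (limma adjusted p = 0.0531, 0.120 and 0.209). Fen1, a nuclease of lagging strand synthesis, was at 0.45 and 0.59, and Mcm4, a subunit of the replicative helicase, at 0.41 and 0.26, none past the threshold. The median of the replication list was 0.089 beside 0.023 for all probe sets. Both SPI arrays lay above both CAS arrays at 29 of its 64 probe sets and below them at 3, against 27.9% and 20.5% of all probe sets. Differences were above 0 at 47 of the 64 and below 0 at 17, the latter including Pcna at -0.23.

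Of 26 genes of G2 and mitosis 0 passed, with a median of 0.013. Birc5, which encodes survivin, was at -0.42 (limma adjusted p = 0.0883), and the centromere genes Cenpf and Cenpa had their nearest probe sets at 0.39 each (adjusted p = 0.101 and 0.115). Of the 13 pocket proteins, E2F factors and DP partners 0 passed, with a median of 0.039: E2f2 was at -0.59 and -0.21, E2f3 at 0.34 and -0.0080, and Tfdp2, a partner of E2F proteins, between -0.28 and 0.23. Of 16 other cyclins, kinases, inhibitors and degradation factors of G1 0 passed, with a median of 0.046. Skp2, which marks p27 for degradation, ran from -0.31 to 0.49 over 6 probe sets, Cdk7, the kinase that activates other CDKs, from 0.055 to 0.30 over 5, and its partner Ccnh from -0.0057 to 0.20 over 3. In these 3 lists the numbers of probe sets at an unadjusted p under 0.05 were 8 higher and 2 lower of 54 for G2 and mitosis, 3 and 2 of 29 for the E2F list and 3 and 2 of 35 for the other G1 genes, beside the 9.43% higher and 8.35% lower of all probe sets. By an ordinary t statistic none passed after adjustment.

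Among 20 targets of p53 other than Cdkn1a, Btg2 fell and Trp53inp1 rose, and 18 did not pass. Of the 39 probe sets of this list 1 was called lower and 1 higher, where 1.25% and 0.249% of all probe sets were. At an unadjusted p under 0.05 in limma 11 were higher and 1 lower, beside 9.43% and 8.35% of all probe sets. Both SPI arrays lay above both CAS arrays at 19 of the 39 and below them at 7, against 27.9% and 20.5%. Btg2, an inhibitor of proliferation, was 1.91-fold lower at 1416250_at, with values of -0.60 and -0.40 on the SPI arrays and 0.47 and 0.40 on the CAS arrays (limma adjusted p = 0.0269). Its other probe set, 1448272_at, was at 0.15 and did not pass (adjusted p = 0.366), so the readings of Btg2 disagreed in sign. Trp53inp1, a stress protein induced by p53, was 1.51-fold higher at 1416926_at, with values of 0.31 and 0.27 on the SPI arrays and -0.27 and -0.34 on the CAS arrays (adjusted p = 0.0394), and at 0.42 at its other probe set (adjusted p = 0.150). Of 24 transcription and chromatin factors known to act on the member genes 0 passed, with 16 probe sets higher and 5 lower of 61 at an unadjusted p under 0.05 (9.43% and 8.35% of all probe sets) and 0 by an ordinary t statistic after adjustment. Ezh2, the Polycomb enzyme that represses the INK4 locus, was at -0.52 with values of -0.26 and -0.25 on the SPI arrays and 0.25 and 0.29 on the CAS arrays, just short of the threshold (adjusted p = 0.0504). Mycn, a Myc family transcription factor, was at 0.50, 0.15 and 0.031, and Ets1, described as an activator of Cdkn2a, was between 0.22 and 0.52 over 4 probe sets.

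**Figure D3:**
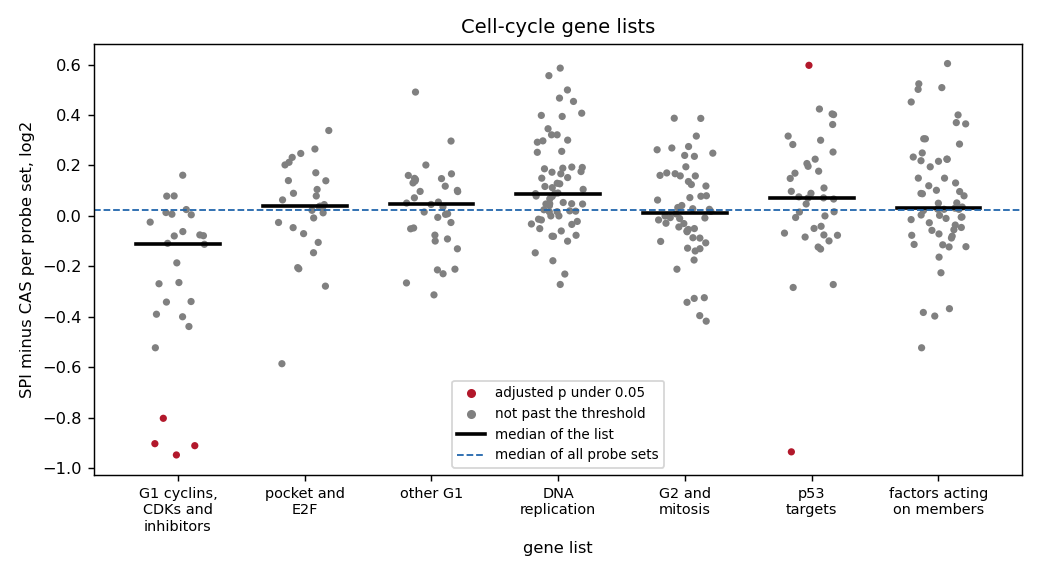
Difference between the diets, SPI minus CAS on the log2 scale, for every probe set (points) of the 10 G1 genes and of 6 lists of their targets and partners, with the list median (black bar) and the median of all probe sets (dashed line, 0.023); red marks an adjusted p under 0.05. The G1 genes have a median of -0.11 and 4 red points, while the 6 lists have medians between 0.013 and 0.089 and 2 red points, Btg2 and Trp53inp1.

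Markers of other cell types moved with the diets on the same arrays. A marker is counted here as fallen or risen where at least 1 of its probe sets was called. Over all probe sets 1.25% were called lower and 0.249% higher. Called lower were 11 of 17 fibroblast, 8 of 26 luminal, 2 of 8 endothelial and 2 of 8 adipocyte probe sets. Called higher was 1 of 32 basal probe sets. Of 10 fibroblast markers 8 fell and 0 rose, with a median over 17 probe sets of -1.36, and the array medians were -0.63 and -0.73 on SPI, against 0.68 and 0.70 on CAS. Lum was at -2.32, Col1a1 at -1.71 and -1.69, and Col3a1 at -1.56 and -1.87 on the log2 scale. The fibroblast markers that did not pass were Dcn, at -0.12 and 0.0080, and Pdpn, at -0.032. Not every probe set of the fibroblast markers that fell was called. Pdgfra 1421916_at was at -0.53 and 1438946_at at -0.38 without passing, and Col1a2 1446326_at, in the class below 2, was at 0.0076. Of 12 luminal markers 5 fell and 0 rose, with a median of -0.32 over 26 probe sets and array medians of -0.17 and -0.17 on SPI, against 0.16 and 0.16 on CAS. The luminal genes that fell were Ehf, Kit, Esr1, Krt18 (-0.73) and Krt19 (-0.89), and Krt8 was between -0.38 and -0.35 without passing. Not every probe set of these fell: Ehf 1447760_x_at was at 0.14, Esr1 1421244_at at 0.065, and Kit 1415900_a_at at -0.92 without passing (limma adjusted p = 0.186). Pgr, also luminal, was at 0.17, 0.28 and 0.35 without passing. Both SPI arrays lay below both CAS arrays at 21 of the 26 luminal probe sets and above them at 4, against 20.5% and 27.9% of all probe sets. Of 7 endothelial markers 2 fell, Cdh5 and Plvap, and the endothelial median was -0.64. The readings of Cdh5 disagreed in sign, at -0.94 for 1433956_at and 0.10 for 1422047_at, where the arrays overlapped (limma adjusted p = 0.770). Of 4 adipocyte markers 1 fell, Lpl, at -1.75 and -1.70, with a list median of -0.43 over 8 probe sets; Fabp4 was between -0.71 and -0.015, Adipoq at 0.38 without overlap of the arrays (limma adjusted p = 0.107) and Cidec, named after its values were seen to complete the list, at 0.10. Of 11 leukocyte markers 0 passed in limma, with a median of 0.20. At an unadjusted p under 0.05, 6 of 16 leukocyte probe sets were higher and 0 lower (9.43% and 8.35% of all probe sets). Of 13 basal markers 1 rose, the oxytocin receptor gene Oxtr, which was 1.61-fold higher at 1440888_at. Oxtr 1426000_at was at 0.30 without passing (limma adjusted p = 0.187). The basal median was 0.12, and 5 of 32 basal probe sets were higher and 0 lower at an unadjusted p under 0.05, beside the same shares. Both SPI arrays lay above both CAS arrays at 18 of the 32 and below them at 0, against 27.9% and 20.5% of all probe sets. D-type cyclins and Cdkn2b are not restricted to basal cells, and the part of fibroblast, luminal and other cells in the lower Ccnd1 and Cdkn2b values was not tested. In bulk samples such as these, fewer cells of a type and less RNA per cell cannot be told apart.

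**Figure D4:**
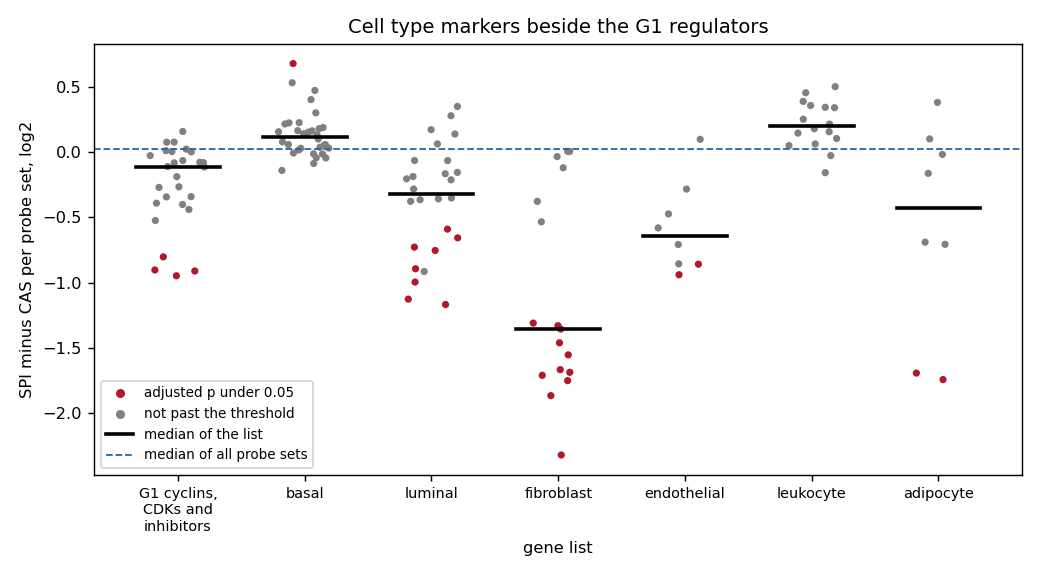
Difference between the diets, SPI minus CAS on the log2 scale, for every probe set (points) of the 10 G1 genes and of 6 lists of cell type markers, with the list median (black bar) and the median of all probe sets (dashed line); red marks an adjusted p under 0.05. The fibroblast markers lie lowest, at a median of -1.36, and the basal and leukocyte markers lie above 0, at 0.12 and 0.20. All points of the G1 genes, from -0.95 to 0.16, fall within the ranges of the luminal (-1.17 to 0.35) and adipocyte markers (-1.75 to 0.38). Those of Ccnd1 and Cdkn2b also fall within the range of the fibroblast markers (-2.32 to 0.0080). The endothelial range (-0.94 to 0.10) holds the points of Ccnd1 but not that of Cdkn2b. The basal range (-0.14 to 0.68) and the leukocyte range (-0.16 to 0.51) hold neither. Whether any of these cell types had a part in the values of the G1 genes was not tested.

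The probe sets whose 4 values lay nearest to those of Cdkn2b, the member with the smallest p, were those of Zbtb7c, Gbp3, Rgs5, Tlr4 and Blnk, at Euclidean distances of 0.034, 0.060, 0.082, 0.092 and 0.094 over the 4 arrays. Gbp3 is an interferon-inducible GTPase, Rgs5 a pericyte gene and Tlr4 the receptor of lipopolysaccharide. Each was lower in SPI, by 1.82-fold to 1.97-fold, which follows from their being picked for values close to those of Cdkn2b. With 4 values per probe set and 34945 probe sets searched, such closeness is a description of these arrays.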

How the data were processed

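RNA of sorted Wnt1-Tg mammary basal cells was measured on 4 arrays, 2 SPI and 2 CAS, grouped by their titles. The authors deposited log2 values made, per the submitters' processing notes, with GCOS and RMA (versions not given here), and the base of the log is assumed from RMA. Each probe set's median over the 4 arrays was 0, at most 5e-07 away, so a centring step that no label records had been added. No column was left unused. Of 45101 probe sets, 64 controls were left out; of the other 45037, 34945 had 1 gene in the platform annotation, 932 several and 9160 none listed, and symbols were updated through gene IDs (34741 matched) with a GRCm38.p6 table. Sequences are from RefSeq, GRCm38.p6. The build of the arrays' design is not given in the sources used here.

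Each probe set was fitted on its own in limma 3.58.1 (R 4.3.3; lmFit, then eBayes without trend, two-sided, SPI minus CAS, no block, 2 residual and 3.11 prior degrees of freedom), adjusted by Benjamini-Hochberg over all 45037 at a threshold of 0.05, and the fit was tested on simulated data. The number of arrays limits the precision. Level classes were checked on ribosomal protein probe sets, of which 97 of 103 were at level 4 or above, and on 27 bacterial control probe sets, of which 5 were. The members and lists were chosen with earlier results of these data known. Named genes were all members, the called genes of each pathway list (up to 6) or else the 3 with the smallest p, the first 3 of each marker list with up to 3 more called, and the 5 probe sets nearest to the member with the smallest p. Alternatives were the replicate block, each array left out, arrays centred on their median, gene means, a filter at level 4, an ordinary t statistic and unadjusted p. Centring on 18 hybridization control probe sets was added after seeing the data.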

Additional observations from a re-analysis of the deposited data

How the results depend on the processing

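The 4 member probe sets called became 0 with the replicate block, 0 with each array left out in turn (0 to 0) and 0 with an ordinary t statistic. They became 11 at an unadjusted p and, as genes, 2 by gene means, and were 5, 4 and 5 with arrays centred on their median, centred on the hybridization controls and filtered at level 4. The 676 calls over all probe sets became 79 with the replicate block, 0 with each array left out (0 to 0), 2261 (1557 higher, 704 lower) with the hybridization controls, 1324 at level 4 or above, 1 by an ordinary t statistic and 8006 at an unadjusted p. The 2 calls in the pathway lists became 0 with the replicate block, 0 with each array left out (0 to 0) and 0 by an ordinary t statistic, 23 (22 higher, 1 lower) with the hybridization controls, 11 (8 higher, 3 lower) at level 4 or above, 66 at an unadjusted p and 6 by gene means. With the replicate block the Ccnd1 probe sets had adjusted p of 0.0805, 0.106 and 0.112 and Cdkn2b 0.101; same-numbered arrays share only a number (their deviations correlated at -0.0989). Hybridization controls were lower in SPI by -0.16 on the log2 scale.

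Signs changed only at members that did not pass. With arrays centred on their median, Ccnd3 1415907_at was at -0.00832, Ccne1 1441910_x_at at -0.0106 and Cdk4 1422440_at at -0.0017. With the hybridization controls, Ccnd2 1416124_at was at 0.076, Ccne1 1416492_at at 0.0934, Cdk4 1422439_a_at at 0.077, Cdk6 1460291_at at 0.131, Cdkn1a 1421679_a_at at 0.0429, and Cdkn1b 1419497_at and 1434045_at at 0.0468 and 0.0801. With each array left out in turn, values ran from -0.0587 to 0.0723 for Ccnd3 1415907_at, from -0.158 to 0.0342 and from -0.0314 to 0.0405 for Ccne1 1416492_at and 1441910_x_at, from -0.0446 to 0.0714 and from -0.00697 to 0.0574 for Cdk4 1422440_at and 1422441_x_at, from -0.138 to 0.0884 for Cdk6 1460291_at, and from -0.262 to 0.0449 for Cdkn1b 1419497_at. The cause of these changes was not tested, except that leaving out an array leaves fewer samples.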
